A study of Mus musculus with 22 samples.

Results

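The 10 genes described here make, break down or sense the lipid messengers of the endocannabinoid system. They were chosen by symbol (Naaa, Faah, Napepld, Dagla, Daglb, Mgll, Abhd6, Abhd12, Cnr1 and Ppara) from the 17306 genes of the deposited table, and all 10 passed the filter on low values. Their messenger RNA was measured by RNA sequencing of lumbar spinal cord (segments L4 to L6, of which the methods name the dorsal horn quadrants on the injured side) of 22 wild-type C57BL6J mice aged 12 to 14 weeks at collection. All mice had received 1 mg of monoiodoacetate (MIA), which blocks glycolysis and damages cartilage, in 1 knee, so no uninjured group stands beside them. SAFit2, a selective inhibitor of the stress-response co-chaperone FKBP51, was given at 100 mg/kg in a slow-release vesicular phospholipid gel (VPG), and Vehicle mice received the gel alone. The 5 Early SAFit2 and 6 Early Vehicle mice were injected around pain onset, on days -3 and 4 by the methods (the sample labels read days 3 and 4), and the 5 Late SAFit2 and 6 Late Vehicle mice on days 20 and 27, once pain was established. Tissue was collected on day 30. Where the Early SAFit2 titles say SAFit1, the treatment label SAFit2 was followed. Early and Late are also labelled as batches, so timing and batch cannot be told apart. The question was whether these genes differed between SAFit2 and Vehicle mice at either timing.

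N-acylethanolamines, among them anandamide and the anti-inflammatory palmitoylethanolamide, are released from membrane precursors by the phospholipase that Napepld encodes and are hydrolysed by the fatty acid amide hydrolase Faah and, in lysosomes, by the acid amidase Naaa. Palmitoylethanolamide acts through the nuclear receptor Ppara, and Naaa is best known from macrophages and other immune cells. The other messenger, 2-arachidonoylglycerol (2-AG), is made by the diacylglycerol lipases Dagla and Daglb, is broken down mainly by the monoacylglycerol lipase Mgll with Abhd6 and Abhd12, and in the dorsal horn acts back on presynaptic terminals through the cannabinoid receptor Cnr1.

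Naaa, whose early groups did not overlap (adjusted p = 0.9999 from limma), and Faah, lower late (adjusted p = 0.0356 from limma), are followed most closely here. The sequences around the starts of both are shown because FKBP51 is a regulator of the glucocorticoid receptor (GR). RefSeq promoters (250 bases before to 50 after a start, build GRCm38.p6) were held for 8 of the 10 genes, with 12 promoters in all. Both lie on the minus strand, Naaa at chr5:92278132-92278431 and Faah at chr4:116017875-116018174. They are printed 5′ to 3′ with capitals for the 6-base GR half-site, TGTTCT or its reverse complement AGAACA.
Naaa: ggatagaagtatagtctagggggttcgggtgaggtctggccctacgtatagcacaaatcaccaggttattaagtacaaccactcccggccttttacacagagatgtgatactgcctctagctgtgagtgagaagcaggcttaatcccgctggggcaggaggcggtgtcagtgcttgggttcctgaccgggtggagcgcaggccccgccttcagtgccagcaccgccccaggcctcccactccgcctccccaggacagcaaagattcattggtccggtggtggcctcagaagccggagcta
Faah: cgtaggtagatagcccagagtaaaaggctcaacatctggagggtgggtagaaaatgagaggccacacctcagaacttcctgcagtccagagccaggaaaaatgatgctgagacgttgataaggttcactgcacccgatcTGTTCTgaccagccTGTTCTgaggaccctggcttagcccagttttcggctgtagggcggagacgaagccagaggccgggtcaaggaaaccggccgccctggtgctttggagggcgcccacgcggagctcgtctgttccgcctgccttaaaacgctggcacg
The Faah window held the half-site 2 times, at -111 and -97 from the start, and the Naaa window held none. Among the 12 promoters 2 held it (the other belonged to Mgll), and 19.0% of 32851 promoters of the same length did. The half-site for PPAR receptors, AGGTCA or TGACCT, was in 1 of the 12 promoters, that of Cnr1 at chr4:33924014-33924313, and in 16.3% of all. The other promoters of Cnr1 held none, and the end of this window was not found in a transcript of Cnr1. A match of letters is a description of the window and says nothing of binding, and this search was chosen after the values had been seen.

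Values are log2 CPM, the reads of a gene per scaled library depth on a log2 scale. Depth was 11352989 to 24433349 reads on genes per library, which put 206 to 611 reads on Naaa, 202 to 859 on Faah and 32 to 145 on Ppara, the member with the fewest. The 9 neuronal, 8 astrocyte, 8 oligodendrocyte and 10 microglial or macrophage markers were detected in every library. Late SAFit2 replicate 2 stood apart: it held 8 reads of the Schwann cell gene Ncmap, where the other 21 libraries held 188 to 1024, and its 4 Schwann cell markers (Prx, Pmp2, Ncmap and Egr2, with Pmp2 at 0 reads) summed to 1.55 CPM against 56.4 to 499.6 CPM. The 6 skeletal muscle markers summed to 211 and 156 CPM in Late SAFit2 replicates 3 and 5 and to between 1.63 and 9.34 CPM in the rest. In bulk tissue fewer cells of a type and less RNA per cell cannot be told apart.

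Levels between genes were compared per kilobase of the longest transcript. Abhd12 had the highest level, 6.88 ± 0.24 (SD, n = 22) log2 CPM per kb, and lay above the next gene, Mgll (4.43 ± 0.26), in 22 of 22 libraries. Mgll and Abhd6 (4.38 ± 0.20) were close, with Mgll above in 15 libraries. Cnr1 followed at 3.32 ± 0.24 and Naaa at 3.20 ± 0.20, in that order in 15 libraries. Napepld (2.40 ± 0.22), Faah (2.26 ± 0.27), Daglb (2.23 ± 0.28) and Dagla (2.01 ± 0.52) formed a lower set in which no neighbour was above the next in more than 18 libraries. Ppara was lowest, at 0.53 ± 0.44, and below Dagla in 22 of 22 libraries. Abhd6 was above Cnr1, and Naaa above Napepld, in every library, whereas the neighbours Mgll and Abhd6, Cnr1 and Naaa, and those of the lower set were not separated beyond the spread between libraries. The order depended on the length: with the union of all exons, Abhd6 came before Mgll and Dagla before Faah and Daglb, Naaa was above Napepld in only 15 libraries, and Cnr1 was above Naaa in 22.

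**Figure D1:**
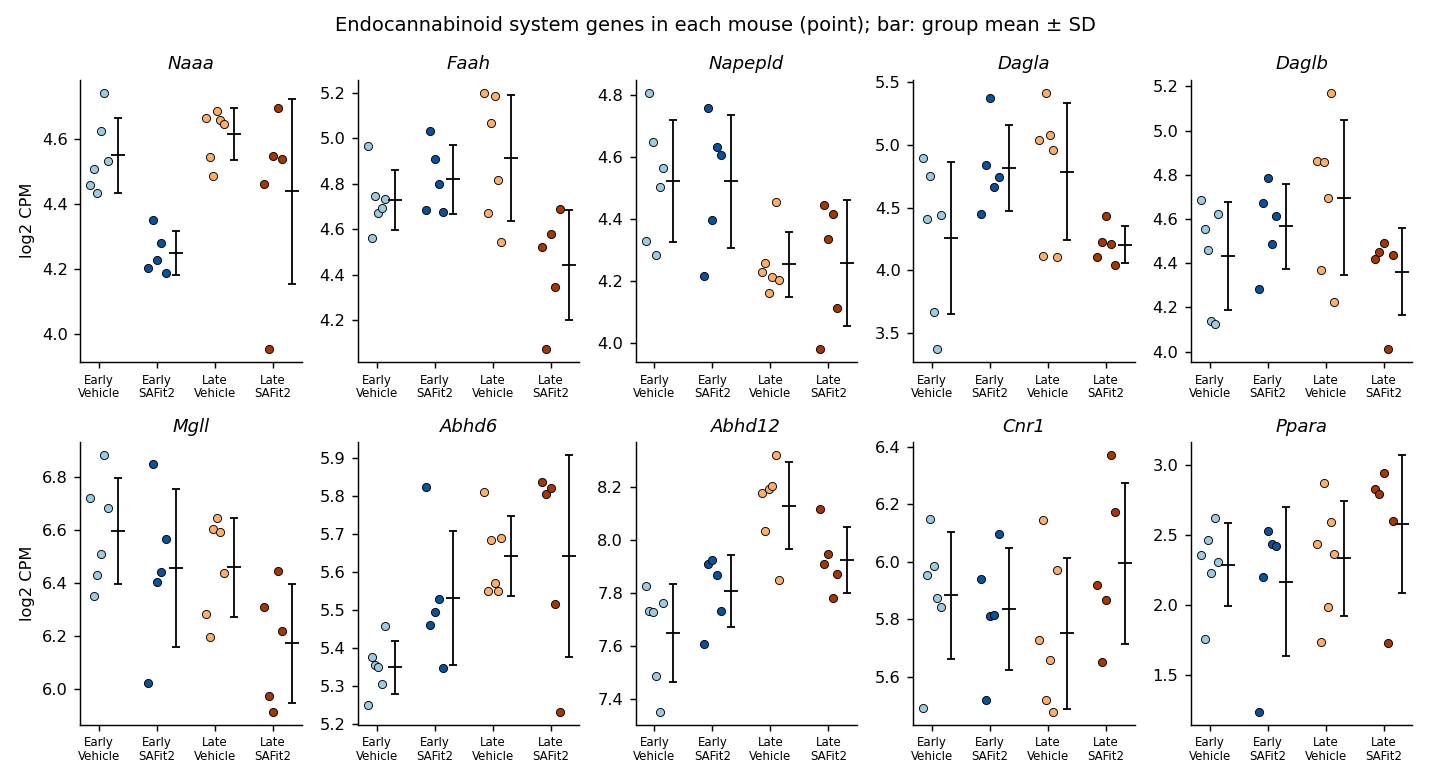
Log2 CPM (y axis, a separate scale for each gene) of the 10 genes in each of the 22 mice (points) by group (x axis), with the group mean ± SD as a bar. The 5 Early SAFit2 mice lie between 4.19 and 4.35 for Naaa, below all 6 Early Vehicle mice, and 1 Late SAFit2 mouse lies at 3.95.

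Naaa, at chr5:92257659-92278170 (GENCODE M21 on mm10, as for all positions of genes here, minus strand), was lower in every Early SAFit2 mouse than in any Early Vehicle mouse. The 5 Early SAFit2 libraries read 4.20, 4.35, 4.23, 4.28 and 4.19 log2 CPM, and the 6 Early Vehicle libraries had a lowest value of 4.43, a median of 4.52 and a highest of 4.74. The groups did not overlap. The early difference was -0.30 ± 0.12 (SE), 0.812-fold, with a 95% interval of -0.54 to -0.06, and 0.00216 by exact permutation of the 462 splits of these mice is the smallest two-sided p they can give. In limma's fit over 16765 genes its p was 0.0167, the 116th lowest, and its Benjamini-Hochberg adjusted p was 0.9999. No gene was called in the early comparison (adjusted p under 0.05 and at least 1.2-fold, 0.0% of all genes, and 0 also by limma voom), 416 genes or 2.48% had an unadjusted p under 0.05, and 59 or 0.352% had groups that did not overlap. Of the 10 genes, 0 were called, 2 had an unadjusted p under 0.05 (Naaa and Dagla) and 1 did not overlap (Naaa). The study itself had picked Naaa from these same mice, so the rank is not independent evidence. The unadjusted p stayed under 0.05 without each of the 22 libraries in turn, with a difference of -0.33 to -0.26. Leaving out a late library cannot change this difference, only its error and p.

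Late treatment gave less separation of Naaa. The Late SAFit2 libraries read 4.46, 3.95, 4.55, 4.70 and 4.54 log2 CPM and the Late Vehicle libraries 4.49 to 4.69 with a median of 4.65. The groups overlapped, and the low value was that of replicate 2, the library with few Schwann cell reads. The late difference was -0.17 ± 0.12 (limma p = 0.149, adjusted p = 0.295), and without replicate 2 it was -0.05, with the other 4 at 4.56 ± 0.10 (SD) and p = 0.40 by exact permutation of 210 splits. The early minus late difference of Naaa was -0.13 ± 0.17, with a 95% interval of -0.47 to 0.22 (exact permutation p = 0.491), so the early and late effects were not shown to differ. As the mean of both timings, the effect that the study counted at an unadjusted p under 0.05, Naaa was -0.24 ± 0.08 (limma p = 0.00821, adjusted p = 0.325) and 0.000558 by exact permutation within timing over 213444 splits. In the fit used here 2215 genes or 13.2% met that threshold, 2 of the 10 among them (Naaa and Mgll), and the mean effects of the other 8 were -0.19 (Faah) to 0.10 (Cnr1). Without Late SAFit2 replicate 2 the mean effect was -0.18 (adjusted p = 0.421).

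Among the genes most like Naaa over the 22 libraries, after each group's mean was subtracted, were B130055M24Rik (Pearson r = 0.82), Ncmap (0.78), Mgl2 (0.77) and Cysltr1 (0.77). Ncmap belongs to Schwann cells, and Mgl2 and Cysltr1 are known from macrophages and leukocytes. These values rest on few libraries: without the 2 farthest libraries they were 0.27 to 0.41, and without Late SAFit2 replicate 2 alone the r of Naaa with Ncmap was 0.21. Within the early groups, where Naaa separated, Schwann cell markers overlapped, with summed levels of 203 to 465 CPM under SAFit2 and 117 to 499.6 CPM under Vehicle. Microglial and macrophage markers summed to 309 to 335 CPM in Early SAFit2 and 325 to 386 CPM in Early Vehicle libraries. Of these 10 markers 9 had lower means under early SAFit2, with a median difference of -0.18 against 0.01 over all genes, and none had an unadjusted limma p under 0.05. Ependymal markers moved more: 6 of 7 had lower means under early SAFit2 and 4 an unadjusted p under 0.05, where 2.48% of all genes had one. Their median difference was -1.67, with summed levels of 22.2 to 30.7 CPM against 26.6 to 52.6 CPM. Late they summed to 20.5 to 51.8 CPM under SAFit2 and 34.0 to 72.8 CPM under Vehicle. In that comparison 2 of 7 were called lower, where 12.1% of all genes were called in either direction. All 7 were lower in the mean effect at an unadjusted p under 0.05, which 13.2% of all genes had in either direction. Of 8 astrocyte markers 7 had lower means early, 1 of them (Gfap) at an unadjusted p under 0.05. The part of these markers in the Naaa difference was not tested.

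**Figure D2:**
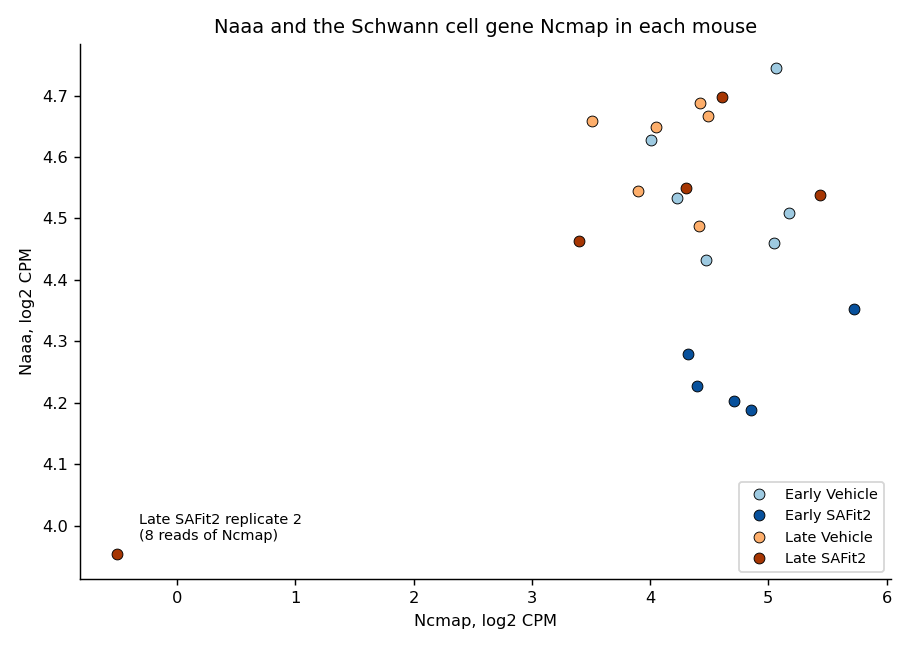
Naaa (y axis, log2 CPM) against Ncmap (x axis, log2 CPM) in each of the 22 mice, coloured by group. Late SAFit2 replicate 2, with 8 reads of Ncmap and 3.95 log2 CPM of Naaa, lies alone, and the 5 Early SAFit2 mice are low in Naaa, while their Ncmap levels overlap those of the Early Vehicle mice.

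Faah, at chr4:115967145-116017926 (minus strand), fell under late treatment and was the only one of the 10 genes called there. The Late SAFit2 libraries read 4.52, 4.07, 4.58, 4.35 and 4.69 log2 CPM, and the Late Vehicle libraries had a lowest value of 4.54, a median of 4.94 and a highest of 5.20. All 5 SAFit2 mice were below the Vehicle mean, although the groups overlapped. The late difference was -0.47 ± 0.13, 0.72-fold, with an adjusted p of 0.0356 from limma and 0.0238 by two-sided exact permutation. The background was wide: 2021 genes or 12.1% were called in the late comparison (876 by limma voom), 5791 or 34.5% had an unadjusted p under 0.05, and 287 or 1.71% did not overlap. Of the 10 genes 1 was called, 4 had an unadjusted p under 0.05 (Faah, Dagla, Mgll and Daglb) and 0 did not overlap, shares near those of all genes. Without Late SAFit2 replicate 2, which also had the lowest Faah, the difference was -0.38 with an adjusted p of 0.0776, and the call was also lost when Late SAFit2 replicate 4 or 5 or Late Vehicle replicate 1, 3, 4 or 5 was left out (-0.54 to -0.42), with under 10 genes called over the whole table each time. Removal of the GC and length trends of each library also ended the call (-0.25, adjusted p = 0.292), and limma then called 0 genes of the table late, with 2605 at an unadjusted p under 0.05.

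Under early treatment Faah read 4.69, 5.03, 4.91, 4.80 and 4.67 log2 CPM, against 4.56 to 4.97 with a median of 4.71 in Early Vehicle mice. The groups overlapped over most of their range, and the difference was 0.09 ± 0.13 (adjusted p = 0.9999). The early minus late difference of Faah was 0.57 ± 0.19 (unadjusted limma p = 0.00642, adjusted p = 0.120, exact permutation p = 0.00856). No gene of the table was called for that difference by limma (0.0%), while 4167 or 24.9% had an unadjusted p under 0.05, 4 of the 10 among them (Dagla, Faah, Abhd12 and Daglb), and the other 6 lay between -0.37 (Ppara) and 0.18 (Abhd6).

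Napepld, at chr5:21662901-21701396 (minus strand), the enzyme that makes what Naaa and Faah break down, differed little between SAFit2 and Vehicle mice. The early groups ranged from 4.22 to 4.76 log2 CPM under SAFit2 and 4.28 to 4.81 under Vehicle, and the late groups from 3.98 to 4.44 and 4.16 to 4.46. Its differences were 0.00 ± 0.13 at both timings, with 95% intervals of -0.26 to 0.26 (early) and -0.26 to 0.27 (late). The pseudogene Gm15719 overlaps it.

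Of the 2-AG synthases, Dagla, at chr19:10245265-10304877 (minus strand, with an antisense gene over it), makes most synaptic 2-AG, and its differences had opposite signs at the 2 timings. The Early SAFit2 libraries read 4.45, 4.84, 5.37, 4.67 and 4.74 log2 CPM against 3.37 to 4.89 with a median of 4.42 in Early Vehicle libraries. The Late SAFit2 libraries read 4.11, 4.22, 4.44, 4.21 and 4.04 against 4.11 to 5.42 with a median of 5.0. SAFit2 mice were thus above the Vehicle mean in 5 of 5 cases early and below it in 5 of 5 cases late, with overlapping groups both times. The early difference was 0.56 ± 0.25 (limma p = 0.0341, adjusted p = 0.9999, exact permutation p = 0.123) and the late difference -0.58 ± 0.25 (limma p = 0.0277, adjusted p = 0.102, exact permutation p = 0.0541). Neither was called, and once GC and length trends were removed they were 0.46 early and -0.039 late, the latter near 0. The early value then had an unadjusted limma p of 0.0036 and an adjusted p of 0.977. The early minus late difference was 1.14 ± 0.35 (limma p = 0.00334, adjusted p = 0.120, exact permutation p = 0.00852), and 0.50 after that removal. Dagla was the most variable of the 10 genes within both Vehicle groups, with an SD of 0.61 in Early and 0.55 in Late mice.

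Daglb, at chr5:143464584-143505942 (plus strand), overlaps Rac1 on the other strand, and the strand setting of the counting is not stated. Its differences had the signs of those of Dagla, 0.14 ± 0.16 early and -0.34 ± 0.16 late (adjusted p = 0.130), with an early minus late difference of 0.47 ± 0.22 (exact permutation p = 0.0461, adjusted p = 0.188), or 0.35 once GC and length trends were removed. That removal did not free Daglb of the GC trend between libraries, as described below.

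Of the 2-AG hydrolases, Mgll, at chr6:88724412-88828360 (plus strand), which ends most 2-AG signals in brain, had lower means under SAFit2 at both timings, neither past the adjusted threshold, and the late difference turned to 0.079 once GC and length trends were removed. The Early SAFit2 libraries read 6.02, 6.85, 6.40, 6.44 and 6.57 log2 CPM against 6.35 to 6.88 with a median of 6.60. The Late SAFit2 libraries read 6.31, 5.98, 5.92, 6.44 and 6.22 against 6.20 to 6.65 with a median of 6.52. All groups overlapped. The differences were -0.14 ± 0.13 early and -0.29 ± 0.13 late (adjusted p = 0.126), and the mean effect was -0.21 ± 0.09 (limma p = 0.0315, adjusted p = 0.352, exact permutation p = 0.0398). The unadjusted p of the mean effect of Mgll was over 0.05 when Early SAFit2 replicate 1 (-0.16), Early Vehicle replicate 5, Late SAFit2 replicate 2 (-0.19) or 3, or Late Vehicle replicate 3, 4 or 5 was left out. The antisense gene Gm26588 overlaps Mgll, as do Gm43937 on the other strand and Gm43999, Gm44001 and Gm44005 on its own strand.

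Abhd6, at chr14:8002902-8056763 (plus strand), a membrane hydrolase that faces the cytosol, read 5.82, 5.46, 5.50, 5.53 and 5.35 log2 CPM in Early SAFit2 mice and 5.25 to 5.46 with a median of 5.35 in Early Vehicle mice. The difference was 0.18 ± 0.11 (limma p = 0.111, exact permutation p = 0.0260), or 0.11 without Early SAFit2 replicate 1, the highest, and the late difference was 0.00 ± 0.11. Abhd12, at chr2:150832493-150904741 (minus strand), which also hydrolyses lysophosphatidylserine, differed by 0.16 ± 0.10 early and -0.21 ± 0.10 late (adjusted p = 0.155, and 0.11 once GC and length trends were removed), and by 0.37 ± 0.14 between timings (exact permutation p = 0.0127, adjusted p = 0.137), which became 0.068 after the same removal.

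The receptors did not pass any threshold. Cnr1, at chr4:33924593-33948831 (plus strand), ranged from 5.52 to 6.10 log2 CPM in Early SAFit2, 5.49 to 6.15 in Early Vehicle, 5.65 to 6.37 in Late SAFit2 and 5.48 to 6.15 in Late Vehicle mice, with differences of -0.05 ± 0.14 early and 0.24 ± 0.14 late (adjusted p = 0.222). Ppara, at chr15:85734983-85802819 (plus strand), ranged from 1.24 to 2.94 log2 CPM over all mice, with differences of -0.12 ± 0.26 early and 0.25 ± 0.26 late. The 95% interval of the late Ppara difference, -0.29 to 0.78, leaves room for changes of either sign.

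**Figure D3:**
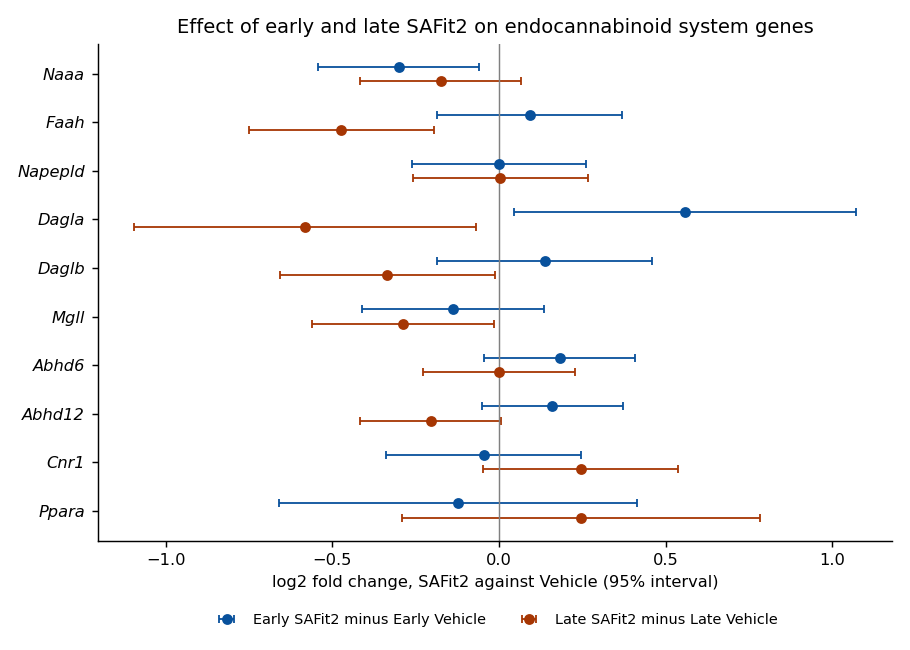
Log2 fold change of SAFit2 against Vehicle (x axis, with 95% intervals from limma) for each gene (y axis), early in blue and late in brown. Naaa lies below 0 at both timings, while Dagla lies at 0.56 early and -0.58 late and Faah at 0.09 and -0.47.

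Over all genes the late differences fell with the GC content of the transcripts, which among the 10 ranged from 44.9% (Cnr1) to 58.8% (Dagla). In each library the slope of log2 CPM on GC content, relative to the mean of all libraries, was -0.47 to -0.05 per 10 points of GC in Late SAFit2 and -0.32 to 0.49 in Late Vehicle, with means of -0.30 and 0.17. The early groups had means of 0.07 and 0.02. The 1000 genes nearest to each member in GC content give its surroundings. For Dagla they had a median late difference of -0.53 beside its -0.58, for Mgll -0.33 beside -0.29, for Abhd12 -0.31 beside -0.21 and for Cnr1 0.19 beside 0.24. Faah lay below its surroundings (-0.47 against a median of -0.18, with an interquartile range of -0.37 to -0.01), and so did Daglb (-0.34 against -0.04), while Ppara lay above (0.25 against -0.12). These 3 were the members outside the interquartile range late. In the early comparison the medians near the 10 genes were -0.01 to 0.08 and 7 members lay outside that range, Naaa (-0.30 against -0.13 to 0.11), Mgll and Ppara below it and Dagla (0.56 against -0.05 to 0.20), Daglb, Abhd6 and Abhd12 above it. An interquartile range leaves out as many genes as it holds, so a member outside it is not unusual among genes of like GC content.

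**Figure D4:**
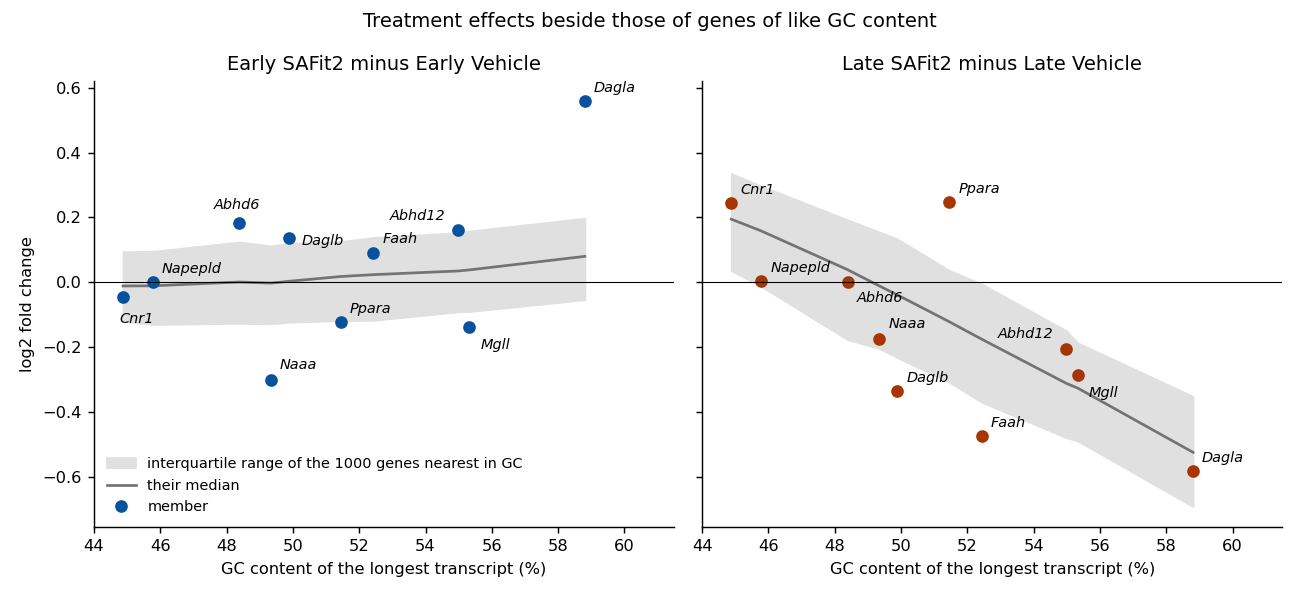
Log2 fold change (y axis) of each gene against the GC content of its longest transcript in percent (x axis), for the early (left) and late (right) comparison, with the median (line) and interquartile range (band) of the 1000 genes nearest in GC content. The late line falls from 0.19 near Cnr1 to -0.53 near Dagla, whereas the early line stays between -0.01 and 0.08.

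The same measure varied between mice of 1 group. Over the 22 libraries, with each group's mean subtracted, the GC slope of the library had an r of 0.86 with Abhd12 (rho 0.84), 0.83 with Daglb (rho 0.79), 0.78 with Dagla (rho 0.76), 0.67 with Faah (rho 0.64) and -0.73 with Cnr1 (rho -0.77). The permutation p of these r was 1e-05 to 0.0048 (adjusted over 55 relations 0.000275 to 0.0293) and that of rho 1e-05 to 0.0066 (adjusted 0.00055 to 0.0363), 1e-05 being the smallest that 100000 permutations can give. The slope was itself fitted on the GC content of all genes, so genes rich in GC tend to rise with it and genes poor in GC to fall. The share of all genes with such an r was not taken, so these p do not set the members apart from other genes. Without the 2 libraries farthest in slope these were 0.84, 0.75, 0.69, 0.51 and -0.68. In the 11 early and the 11 late libraries taken alone they were 0.86 and 0.91 (Abhd12), 0.80 and 0.86 (Daglb), 0.75 and 0.86 (Dagla), 0.80 and 0.63 (Faah), and -0.69 and -0.75 (Cnr1). For Naaa the r was -0.12 (rho -0.12, permutation p = 0.550, adjusted p = 0.721). Of the 45 pairs of members 4 passed the same adjustment (permutation p 1e-05 to 0.00288, adjusted 0.000275 to 0.0198): Daglb with Abhd12 (r = 0.86, rho 0.77), Dagla with Abhd12 (0.79, rho 0.70), Dagla with Daglb (0.78, rho 0.76) and Cnr1 with Daglb (-0.65, rho -0.70). The share of all pairs of genes with such an r was not taken either, so these p do not set the 4 pairs apart. In the 11 early and the 11 late libraries taken alone, Daglb with Abhd12 had 0.91 and 0.85 and Dagla with Abhd12 0.905 and 0.636. Dagla with Daglb had 0.90 and 0.71, and Cnr1 with Daglb -0.4 and -0.81. After removal of the GC and length trend of each library, the first 3 of the 4 pairs had an r of 0.07, 0.32 and 0.28, and Cnr1 with Daglb -0.62. The removal did not end the relation to the GC slope for every gene. The r with the slope was then 0.81 for Daglb and -0.57 for Cnr1, against -0.10 for Abhd12, 0.37 for Dagla and 0.18 for Faah. With that removal the early difference of Naaa was -0.27 (adjusted p = 0.977). These relations were chosen after the values had been seen, and their part in the treatment differences was not tested beyond that.

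**Figure D5:**
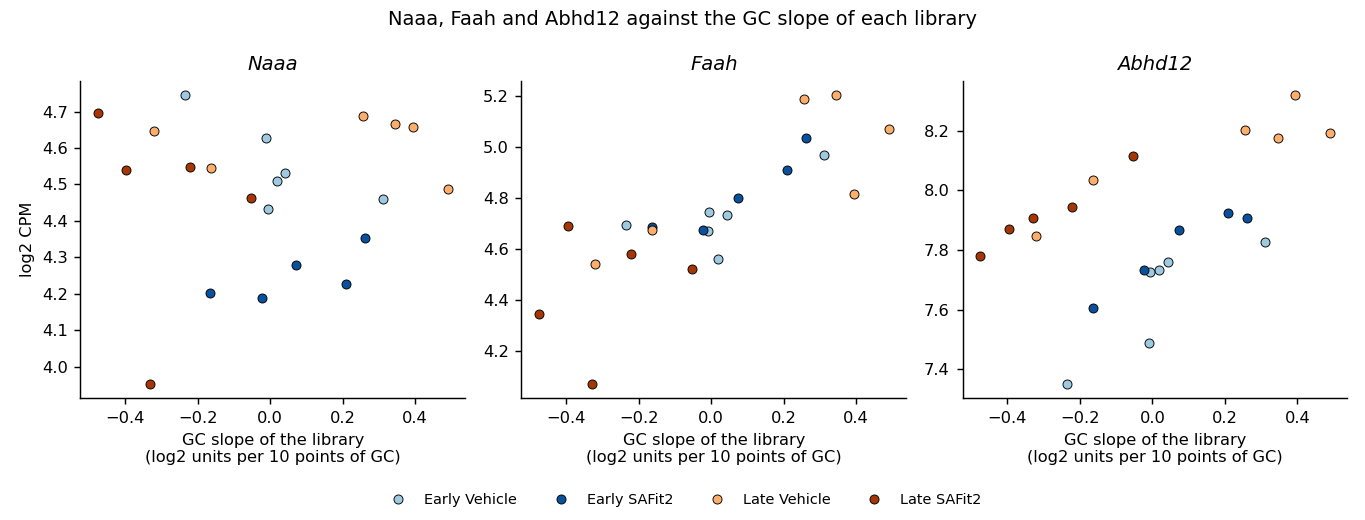
Log2 CPM (y axis) of Naaa, Faah and Abhd12 against the GC slope of the library (x axis, log2 units per 10 points of GC content) in each of the 22 mice, coloured by group. Abhd12 and Faah are higher in libraries of higher slope within groups, and Naaa has no such order (r = -0.12).

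Between the Vehicle groups, which received no drug, Abhd12 was higher in Late than in Early mice. Early Vehicle libraries ranged from 7.35 to 7.83 log2 CPM with a median of 7.73 and Late Vehicle libraries from 7.85 to 8.32 with a median of 8.18, without overlap. The difference was 0.48 ± 0.10 (limma adjusted p = 0.00219, exact permutation p = 0.00216), and under quantile normalization it was 0.31 and not called (adjusted p = 0.0679). Abhd6 also did not overlap, with 5.25 to 5.46 against 5.55 to 5.81 log2 CPM, and differed by 0.29 ± 0.11 (adjusted p = 0.0785, exact permutation p = 0.00216). Of all genes 9.11% were called, 24.3% had an unadjusted p under 0.05 and 4.92% did not overlap, and of the 10 these were 1, 4 (Abhd12, Abhd6, Dagla and Napepld) and 2. Napepld was -0.27 ± 0.12 and Dagla 0.53 ± 0.24, neither past the adjusted threshold, and the other 6 lay between -0.14 (Mgll) and 0.27 (Daglb). Between the SAFit2 groups, 20.5% of genes were called and 0 of the 10. An unadjusted p under 0.05 was found for 35.6% of genes and 2 of the 10, Faah (-0.38 ± 0.14, adjusted p = 0.0560) and Dagla (-0.61 ± 0.26, adjusted p = 0.0952), and groups without overlap for 14.5% of genes and for Dagla alone, with an exact permutation p of 0.00794, the smallest that 252 splits can give. Once GC and length trends were removed these differences were -0.095 for Faah and -0.037 for Dagla, and Abhd12 was called instead (0.42, against 0.12 before). The other 8 lay between -0.28 (Mgll) and 0.41 (Ppara) without that removal. These comparisons and the treatment comparisons share their mice.

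The wider pathway was followed in lists. Of 12 other genes that make, break down or carry N-acylethanolamines, 0 were called in either treatment comparison, with median differences of -0.04 early and 0.16 late, against 0.01 and -0.05 over all genes. The one with the lowest late p was the acid ceramidase Asah1, a relative of Naaa (0.25 ± 0.11, adjusted p = 0.118). Asah2, a neutral ceramidase, was among the genes of the mean effect (0.28 ± 0.10, adjusted p = 0.330), or 1 of 12, where 13.2% of all genes were. Between the Vehicle groups Abhd4, which acts on the same precursors as Napepld by another route, was 0.42 ± 0.10 higher late (adjusted p = 0.00748), and between the SAFit2 groups Abhd4 (0.34 ± 0.11), Asah1 (0.34 ± 0.12) and Fabp5, a carrier of these lipids (0.46 ± 0.13), were called higher late. These are 1 of 12 and 3 of 12, where 9.11% and 20.5% of all genes were called.

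Of 9 other 2-AG and receptor genes 3 were called late, where 12.1% of all genes were. Plcb1, a phospholipase that supplies diacylglycerol, rose by 0.46 ± 0.12 (adjusted p = 0.0340), and Ppard (-0.71 ± 0.24, adjusted p = 0.0496) and Rxra, the partner of PPAR receptors (-0.57 ± 0.17, adjusted p = 0.0403), fell. None of them was called early, where the list's median was 0.14. In the mean effect 1 of these 9, Plcb1, had an unadjusted p under 0.05 (0.25 ± 0.09), where 13.2% of all genes had one. The late calls of these genes belong to the comparison in which leaving out any of 7 libraries left under 10 calls and removal of GC and length trends left 0. Cnrip1, a protein that binds the Cnr1 receptor, was lower in Late than Early Vehicle mice (-0.40 ± 0.10, adjusted p = 0.0154). Plcb1 (0.38 ± 0.13) was higher and Ppard (-0.71 ± 0.25) and Pparg (-1.57 ± 0.52) were lower in Late than Early SAFit2 mice. That is 1 of 9 and 3 of 9, where 9.11% and 20.5% of all genes were called.

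Of 17 target genes of Ppara, mostly enzymes of fatty acid oxidation, 0 were called in either treatment comparison, with medians of 0.024 early and -0.07 late. The lowest late p was that of the thiolase Acaa2 (-0.31 ± 0.11, adjusted p = 0.0660). Acaa2 (-0.19 ± 0.08) and the thioesterase Acot1 (-0.28 ± 0.12) were among the genes of the mean effect, or 2 of 17, where 13.2% of all genes were. Between the Vehicle groups Hadha (0.48 ± 0.10) was called higher late, and between the SAFit2 groups Acadl (0.42 ± 0.14) and Hadhb (0.48 ± 0.11). That is 1 of 17 and 2 of 17, where 9.11% and 20.5% of all genes were called.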

How the data were processed

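The authors trimmed reads with Trimmomatic and aligned them to mm10 with HISAT2 (per the labels), counted them per gene with featureCounts and normalised for depth with TMM factors (per the methods), and deposited log2 CPM for the 22 mice. The strand setting and versions are not given in the sources used here. The deposited values share a floor of -3.15 for 0 reads, from which 100% of values came back as whole reads (tolerance 0.02). These gave the depth, 11352989 to 24433349 reads per library, which limits genes of few reads such as Ppara.

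Genes with log2 CPM of at least -1 in 5 libraries (16765 of 17306) entered limma 3.58.1 in R 4.3.3 with a mean per group and a variance trend, a test that fits log2 values. A gene was called at a Benjamini-Hochberg adjusted p under 0.05 over all genes and a fold change of 1.2, and in the mean effect counted at an unadjusted p under 0.05, as the study did. Single genes were also tested by two-sided exact permutation. Transcript GC content and length (longest isoform, GENCODE M21) were known for 96.5% of genes, and GC and length trends were removed by loess (span 0.5) as an alternative. Python 3.11.15 made tables and plots. Fits were tested on simulated data, where the pass mark was reset, after a first result, to changed genes with ample reads, since smaller changes and genes of few reads were often missed.

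All 10 members are described in the early and the late comparison, with ranges for some in the others, and of each pathway list the called genes are named, or with none called the one with the lowest late p. The members and lists were chosen with earlier results of these data known. The relations to library GC slope, the GC neighbours, the comparison with Ncmap, the promoter search and the choice of results followed in the sensitivity section were added after the values were seen. Each mouse is 1 library. Of 118 list genes 110 are in the table, and the others were not analysed here. Some genes of these lists, and of those most like Naaa, are not reported here. Replicate numbers were not used to pair the mice in the main fit.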

Additional observations from a re-analysis of the deposited data

Results flagged for a closer look

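Among 40 sets of values (10 genes in 4 groups) 4 held a mouse far from the others of its group, where chance gives about 1 in 20. Napepld in Late Vehicle replicate 5 was 4.46 log2 CPM, above the other 5 mice, whose highest was 4.26. Daglb in Late SAFit2 replicate 4 was 4.01, below the other 4, whose lowest was 4.42. Ppara was 1.24 in Early SAFit2 replicate 1 and 1.73 in Late SAFit2 replicate 4, below all other mice of those groups, on 34 and 32 reads.

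The early and the late effect differed at an unadjusted limma p under 0.05 for 4 genes, with early minus late differences of 1.14 for Dagla (adjusted p = 0.120), 0.57 for Faah (adjusted p = 0.120), 0.37 for Abhd12 (adjusted p = 0.137) and 0.47 for Daglb (adjusted p = 0.188). None passed the adjusted threshold. All 4 varied with the GC slope of the library, and after removal of the GC and length trend the differences were 0.50 for Dagla, 0.29 for Faah, 0.35 for Daglb and 0.068 for Abhd12. Daglb still varied with the slope after that removal (r = 0.81), so its 0.35 is not free of it.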

How the results depend on the processing

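The 60 effects (10 genes, 6 comparisons) were refitted under 15 settings that keep all libraries and without each of the 22 libraries (14 such settings for the mean and the early minus late effect). The early Naaa difference was -0.32 to -0.25 over the former, with an unadjusted limma p under 0.05 in all 15 and an adjusted p of 0.344 to 1.00, and its mean effect was -0.24 to -0.20. Some settings, such as the fit without the variance trend, leave the difference itself as it was and alter only its error. For Naaa the other values were as follows. Its late difference was -0.20 to -0.13 and never past a threshold. Its early minus late difference was -0.18 to -0.05.

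The late call of Faah (main value -0.47) was lost without the variance trend (-0.47, adjusted p = 0.0579), with only the 11 late libraries (-0.47, adjusted p = 0.0745), and after removal of GC and length trends without (-0.25) and with the replicate block (-0.27). The mean effect of Mgll lost its unadjusted p under 0.05 with the replicate block (-0.21) and after the GC and length removal without (-0.052) and with the block (-0.015). The Vehicle timing effect of Abhd12 lost its call under quantile normalization (0.31, adjusted p = 0.0679).

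Of effects that changed sign, the late Mgll difference was 0.079 after GC and length removal and 0.12 with the block added, the late Abhd12 difference 0.11 and 0.11, the late Napepld difference -0.094 and -0.11 (and -0.0017 by voom on recovered reads), the mean Abhd12 effect 0.14 and 0.15, the mean Napepld effect -0.043 and -0.061 (-0.016 with library quality weights, -0.0034 by voom), the mean Dagla effect 0.21 and 0.21 (0.014 under quantile normalization), the early minus late Mgll difference -0.26 and -0.26, that of Napepld 0.10 and 0.10, and the SAFit2 timing effect of Mgll 0.10 and 0.10. The early Napepld difference was 0.0081 after GC and length removal, the early Ppara difference 0.17 with library quality weights and the SAFit2 timing effect of Abhd12 -0.068 under quantile normalization. The late Abhd6 difference, near 0, was 0.00044 with a pseudocount of 2, 0.073 with library quality weights, 0.027 centred on the median gene, 0.015 with the replicate block, 0.0011 with GC and length removal and the block, and 0.022 by voom. The cause of these changes of sign was not tested. After GC and length removal the mean Abhd12 effect had an unadjusted limma p of 0.00799 (adjusted p = 0.466), and 0.0143 with the block. The mean Dagla effect had an unadjusted limma p of 0.0491 (adjusted p = 0.601), and 0.0466 with the block. Over all genes 1340 had an unadjusted p under 0.05 for the mean effect after that removal. With the GC slope of the library Mgll had an r of 0.28 (permutation p = 0.2135), and of -0.44 after the GC and length removal.

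The number of the 10 genes called late (1) was 0 without the variance trend, with only the late libraries, and after GC and length removal with or without the block, and 4 with library quality weights. With those weights it was also 4 for the mean effect (2), 4 for the early minus late difference (0), 7 for Vehicle timing (1) and 3 for SAFit2 timing (0). For Vehicle timing the number of the 10 called was 0 under quantile normalization and 3 after GC and length removal with or without the block. Over all genes that was 1164 calls under quantile normalization, 2977 after GC and length removal and 2880 with the block. For SAFit2 timing the number of the 10 called was 1 with a filter at log2 CPM 1, with only the SAFit2 libraries, and after GC and length removal with or without the block. Over all genes 3298 to 3666 were called under those settings.

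Without single libraries the late Faah difference was -0.55 to -0.38, the mean effect of Mgll -0.26 to -0.16, the Vehicle timing effect of Abhd12 0.42 to 0.54, the early Naaa difference -0.33 to -0.26, the mean Naaa effect -0.27 to -0.18 and the early minus late Naaa difference -0.25 to -0.06. The members called were 0 to 3 late, 1 to 3 for the mean effect, 0 to 3 for early minus late, 1 to 2 for Vehicle timing and 0 to 1 for SAFit2 timing. Over all genes the calls were 1 to 4971 late, 0 to 2513 for early minus late, 944 to 2482 for Vehicle timing and 2201 to 3957 for SAFit2 timing. For the mean effect 1313 to 3780 genes had an unadjusted p under 0.05.
Values near 0 changed sign without some library, with ranges of Cnr1 early -0.12 to 0.033, Ppara early -0.23 to 0.11, Napepld early -0.059 to 0.076, Abhd6 late -0.049 to 0.10, Napepld late -0.043 to 0.073, Abhd12 mean -0.052 to 0.0026, Napepld mean -0.028 to 0.040, Dagla mean -0.10 to 0.052, Napepld early minus late -0.073 to 0.072 and Ppara Vehicle timing -0.064 to 0.16.

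Over all genes, the 2021 late calls were 62 without the variance trend, 6381 with library quality weights, 1231 under quantile normalization, 0 with only the late libraries, 3157 with the replicate block, 0 after GC and length removal and 876 by voom, and 1 to 4971 without single libraries. Correlations of same-numbered SAFit2 and Vehicle mice were -0.236 to 0.317, with 2 of 10 over 0.1. They were not set against those of differently numbered mice, so they cannot show whether replicate numbers pair the mice.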
